A study of Artemia parthenogenetic lineage with 6 samples.

Results

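Among the transcripts of brine shrimp (Artemia parthenogenetica) cysts, 46 gene models had at least 10 reads in each library of the diapause stage and at most 5 reads in each library made 5 h after embryonic diapause termination (EDT). They were chosen by these read counts alone, out of 16591 models in the count table, of which 11313 met the limit at 0 h. Because the counts of both stages chose the models, their lower level at 5 h is a description and was not tested. The 46 models included 24 with an evm.TU identifier, 1 that joins 2 such identifiers, and 21 of the 3453 models with an identifier of another form, called non-evm models here and named by the number in their identifier.

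RNA was sequenced from whole cysts of wild-type genotype, collected at Ebinur Lake and taken from the same batch of cysts. The ArD_0h group (n = 3 libraries) was labelled as the diapause stage with no treatment. The ArR_5h group (n = 3 libraries) stands for 5 h after EDT. Diapause had been broken by drying and cold storage, the cysts took up water again on ice, and incubation followed at 28 °C with the light always on, all in seawater made to 30‰ salinity. The protocol text of the labels names the diapause stage together with the rehydration, so it is not clear which of these steps the ArD_0h cysts went through, and effects of time, drying, cold storage, water, temperature and light cannot be told apart. In whole cysts, fewer cells of a type and less RNA per cell also cannot be told apart.

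A cyst is an encysted embryo whose development and metabolism are halted in diapause. Such embryos carry mRNA stored from before the arrest, together with protective chaperones such as artemin and p26, and after the arrest ends translation and transcription resume. A stored mRNA can then be translated, kept or degraded, so that an mRNA found in the dormant embryo need not be found some hours later. An evm.TU identifier is the form that EVidenceModeler, a tool which merges several kinds of gene evidence into consensus models, gives to a transcription unit on a contig. The identifiers carry no gene names. Of the study's Gene Ontology terms, only those listed under an identifier of evm form were used here. The identifiers used numbered 567, beside 12851 evm and 287 joined models in the count table. They belong to genes that the study found changed in both chromatin accessibility and RNA, over time spans other than that compared here. None of the 46 models (0 members) was among these identifiers. The non-evm members could not be, since only identifiers of evm form were used, and nothing is read from the absence of the evm members. Whether the study also listed terms for non-evm models was not checked. No function is therefore given to any of the 46 models, and the check of the cyst label by marker genes was not made.

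Library totals ran from 9992823 to 13505892 reads. A count of 3 corresponded to 0.226 to 0.299 CPM (read counts relative to the library total, scaled by TMM factors, edgeR's correction for composition). The limit of 10 reads at 0 h therefore stood only a few times above what could be told from 0, and all statements on single models rest on few reads. Intervals given for reads cover counting error only.

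The members were weakly expressed at 0 h. Their mean levels ran from 0.987 to 4.74 CPM with a median of 1.42 CPM, against a median of 18.4 CPM over all models that met the limit at 0 h. Only 6 of the 46 were above 2 CPM and 0 above 5 CPM. Summed over the 3 libraries of the group, a member had a median of 47.5 reads at 0 h and 8.5 reads at 5 h. Per length, 35 of the 46 had a mean above 1 FPKM (reads scaled by model length and library depth) at 0 h and 5 above 5 FPKM, with a highest value of 7.33 FPKM.

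Complete absence at 5 h was not seen in these models as a set. None of the 46 (0 members) was without reads in all 3 ArR_5h libraries, and 37 had at least 1 read in every one of them. Reads were at 0 in 2 ArR_5h libraries for 3 members and in 1 library for 6 members. By library, 6 members had 0 reads in ArR_5h replicate 1, 4 in replicate 2 and 2 in replicate 3. At the other end, 19 members reached the limit of 5 reads in at least 1 ArR_5h library. As a set, the data therefore show models reduced to a few reads. In 5 members, however, no ArR_5h library had more than 2 reads, below the count of 3 used above as the floor. The limit is not confined to them. The median level of the members at 5 h was 0.253 CPM, where 3 reads corresponded to 0.256 to 0.285 CPM in the ArR_5h libraries. For a typical member, loss and a few remaining reads therefore cannot be told apart at this depth.

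Taken as a sum, the 46 models held 776, 763 and 921 reads in ArD_0h replicates 1, 2 and 3. The same sum came to 128, 137 and 137 reads in ArR_5h replicates 1, 2 and 3. The summed level was 73.0 ± 3.35 CPM at 0 h and 11.9 ± 1.01 CPM at 5 h (SD, n = 3), which is 6.12-fold lower, with 16.3% of the level left. The ArR_5h libraries lay close together, at 11.04 CPM (95% exact Poisson interval 9.21 to 13.1), 13.03 CPM (10.9 to 15.4) and 11.7 CPM (9.82 to 13.8). Their intervals overlapped. The limit of 5 reads removed every model with more reads in a single ArR_5h library, so this closeness is set in part by the choice. Nothing is read from it.

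The levels were uneven between the ArD_0h libraries in the evm members (the joined model included). These summed to 35.8, 40.4 and 31.5 CPM in ArD_0h replicates 1, 2 and 3, with intervals of 36.6 to 44.5 CPM in replicate 2 and 28.5 to 34.6 CPM in replicate 3 that did not overlap. The limit of 10 reads corresponded to 0.998 CPM in replicate 2 and 0.754 CPM in replicate 3, the deepest library. The choice itself thus admitted lower levels in replicate 3, and the intervals cover counting error only, so nothing is read from this difference. The non-evm members summed to 37.5, 35.7 and 38.02 CPM in the same libraries, with overlapping intervals. At 5 h the sums were 7.12 ± 0.691 CPM for evm members and 4.80 ± 0.325 CPM for non-evm members (SD, n = 3). The difference between the stages was 5.04-fold for the evm members and 7.72-fold for the non-evm members, and since both kinds were chosen by the same limits this difference was not tested.

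**Figure D1:**
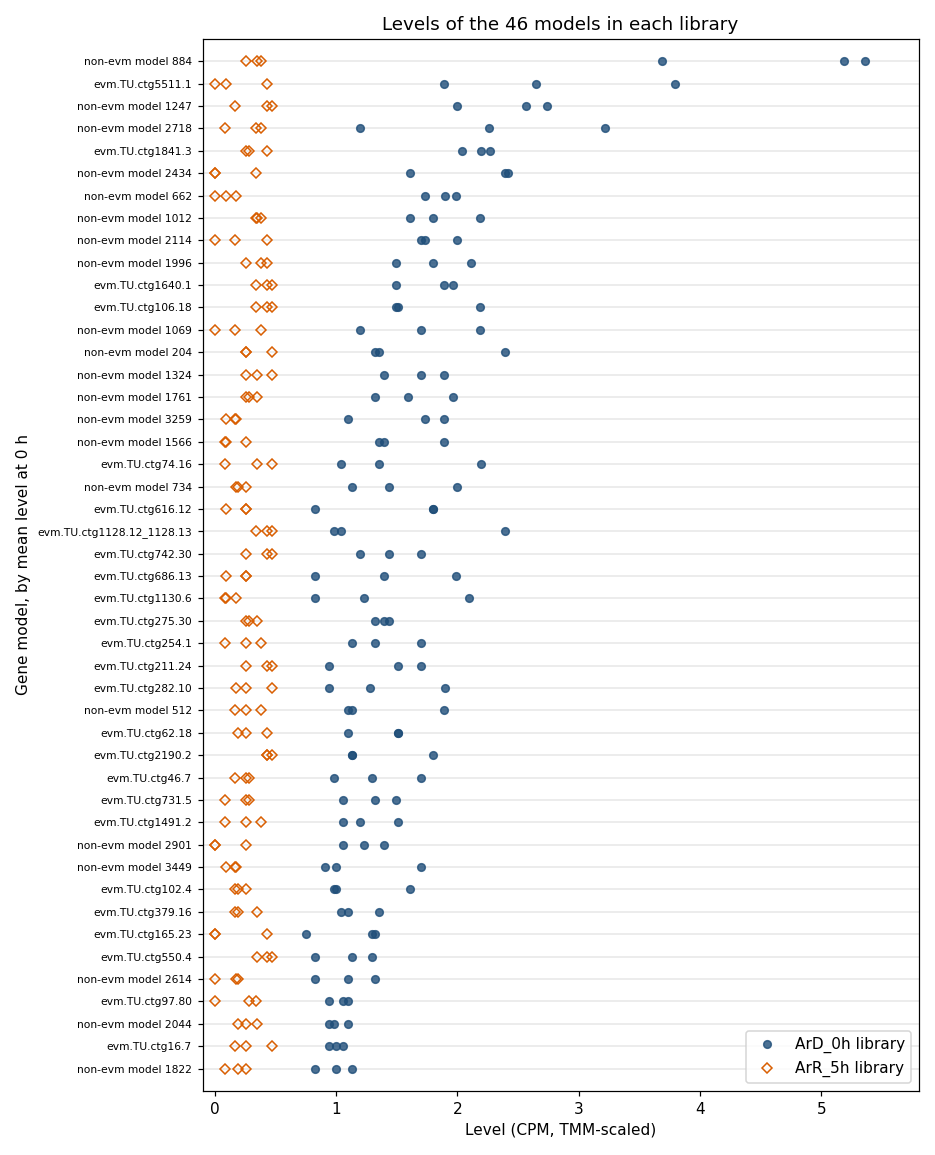
Level of each of the 46 models (rows, ordered by mean level at 0 h) in CPM scaled by TMM factors, with filled circles for the 3 ArD_0h libraries and open diamonds for the 3 ArR_5h libraries. No circle overlaps a diamond in any row, as the choice of models requires, and only non-evm model 884 has libraries above 5 CPM.

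Non-evm model 884, of 659 bases, was the most abundant member. It had 39, 52 and 71 reads in ArD_0h replicates 1, 2 and 3 and 4, 4 and 3 reads in ArR_5h replicates 1, 2 and 3. Its level was 4.74 ± 0.920 CPM at 0 h and 0.327 ± 0.064 CPM at 5 h (SD, n = 3), 14.5-fold lower. It was the only member (1 of 46) with 50 or more reads in a library, so that its remaining share, 6.80% with a 95% counting interval of 3.33 to 12.5%, was the best determined among the strongly reduced models.

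The evm model with the highest level was evm.TU.ctg5511.1, a short model of 372 bases and the only 1 listed on its contig. It had 28, 38 and 25 reads in ArD_0h replicates 1, 2 and 3. In ArR_5h replicates 1, 2 and 3 it had 0, 1 and 5 reads, so that 5 of its 6 remaining reads were in a single library. Its level of 2.77 ± 0.960 CPM at 0 h stood against 0.174 ± 0.224 CPM at 5 h (SD, n = 3), 15.9-fold lower, and the 5 h libraries differed by more than their mean. Per length it was the highest member of all, at 7.33 ± 2.55 FPKM at 0 h (SD, n = 3).

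Among the non-evm members, model 662 kept the smallest share of its 0 h level. It had 21, 19 and 23 reads in ArD_0h replicates 1, 2 and 3 and 2, 1 and 0 reads in ArR_5h replicates 1, 2 and 3. The 3 reads left correspond to 4.77% of the 0 h level (95% counting interval 0.958 to 14.6%). Its ArD_0h libraries were close, at 1.87 ± 0.127 CPM (SD, n = 3). Model 2434 was similar, with 17, 24 and 32 reads in ArD_0h replicates 1, 2 and 3 against 0, 0 and 4 reads at 5 h, 5.49% of the 0 h level (interval 1.46 to 14.7%). All its remaining reads came from ArR_5h replicate 3.

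Other non-evm members of higher level kept more of their reads. Model 1247 had 29, 20 and 34 reads at 0 h and 5, 5 and 2 reads at 5 h, 6.78-fold lower by mean CPM. Model 2718 had 34, 12 and 30 reads at 0 h and 1, 4 and 4 reads at 5 h, and its ArD_0h libraries differed 2.68-fold in CPM, the widest ratio among the 46. The difference between the stages, 8.26-fold by mean CPM, was therefore larger than the spread at 0 h, but the lowest ArD_0h library of this model was near the limit. Model 1012 had 17, 18 and 29 reads at 0 h and 4 reads in each ArR_5h library, 5.24-fold lower.

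The remaining reads lay in different libraries in the next non-evm models. Model 2114, with 18, 20 and 23 reads at 0 h, had 5, 0 and 2 reads at 5 h, so that ArR_5h replicate 1 held most of them. Model 1069, with 18, 12 and 29 reads at 0 h, had 0, 4 and 2 reads at 5 h, none of them in replicate 1. Model 1996, with 19, 15 and 28 reads at 0 h and 3, 4 and 5 at 5 h, and model 204, with 14, 24 and 18 reads at 0 h and 3, 5 and 3 at 5 h, had reads in all libraries. No ArR_5h library was the one with fewest reads in all of these models.

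Among the evm members, evm.TU.ctg1841.3 had closely matching libraries, with 24, 22 and 27 reads at 0 h and 3, 3 and 5 reads at 5 h. It stood at 2.17 ± 0.118 CPM at 0 h and 0.324 ± 0.090 CPM at 5 h (SD, n = 3), 6.69-fold lower. The models evm.TU.ctg1640.1, with 20, 15 and 26 reads at 0 h and 5, 5 and 4 at 5 h, and evm.TU.ctg106.18, with 16, 15 and 29 reads at 0 h and 5, 5 and 4 at 5 h, had the same counts in the ArR_5h libraries. These correspond to 4.28-fold and 4.16-fold lower levels, so that both models kept more than 20% of the 0 h level and stood at the limit of 5 reads.

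In the next evm members by level, the lowest ArD_0h library had 11 or 12 reads and the highest ArR_5h library 5. The model evm.TU.ctg74.16 had 11, 22 and 18 reads at 0 h and 4, 5 and 1 at 5 h, 5.07-fold lower by mean CPM. The joined model evm.TU.ctg1128.12_evm.TU.ctg1128.13 had 11, 24 and 13 reads at 0 h and 5, 5 and 4 at 5 h, only 3.54-fold lower, with replicate 2 above the other ArD_0h libraries. The model evm.TU.ctg742.30 had 18, 12 and 19 reads at 0 h and 5, 5 and 3 at 5 h, 3.72-fold lower. For these models the lowest ArD_0h library and the highest ArR_5h library were separated by 6 to 7 reads.

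The models evm.TU.ctg616.12, evm.TU.ctg686.13 and evm.TU.ctg1130.6 shared a low ArD_0h replicate 3. They had 19, 18 and 11 reads, 21, 14 and 11 reads, and 13, 21 and 11 reads in ArD_0h replicates 1, 2 and 3. At 5 h they had 3, 1 and 3 reads, again 3, 1 and 3 reads, and 2, 1 and 1 reads. Since replicate 3 was the deepest library, 11 reads there stood at 0.830 CPM, and the 3 models did not pass the low-count filter of the test. The model evm.TU.ctg1130.6 was 11.8-fold lower at 5 h by mean CPM, the second largest difference among evm members.

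The share of the 0 h level left at 5 h varied widely among the members, from 4.77% to 38.9%, with a median of 18.04%. Under 10% was left in 8 members, under 20% in 31 and under 30% in 44. The highest share belonged to evm.TU.ctg550.4, a model named here after its values were seen, with 12, 13 and 11 reads at 0 h and 4, 5 and 5 reads at 5 h. The order of neighbouring members is not resolved, since the 95% counting intervals of most overlap. In 6 members the interval reached 50% of the 0 h level. These intervals do not account for the choice of models by the same reads. Of the 8 members with under 10% left, 6 were non-evm models and 2, evm.TU.ctg5511.1 and evm.TU.ctg1130.6, were evm models.

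**Figure D2:**
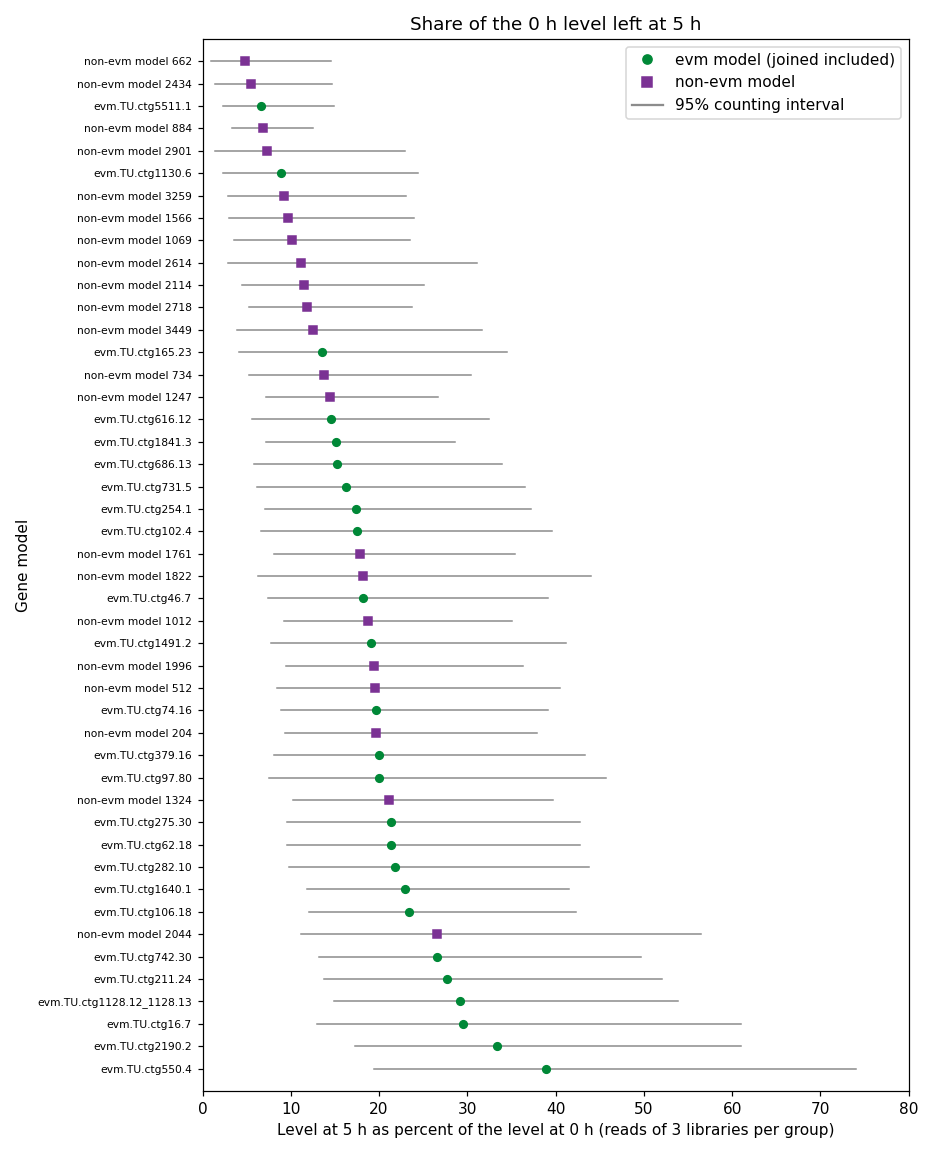
Level at 5 h as a percent of that at 0 h for each member, from the reads of all 3 libraries per group scaled by TMM factors. Points are ratios (circles for evm models, squares for non-evm models) and bars are 95% exact counting intervals, which run from 0.958 to 14.6% for non-evm model 662 and from 19.4 to 73.98% for evm.TU.ctg550.4.

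The members spanned model lengths from 164 to 7176 bases with a median of 894 bases. Models of comparable reads at 0 h were taken as the 2542 other models that met the limit at 0 h and had 33 to 162 reads in the ArD_0h libraries together, as the members did. Only this range was matched. Their medians were 89 reads and 2.62 CPM at 0 h, against 47.5 reads and 1.42 CPM in the members, so comparisons with them are not at equal level. The median length of the models of comparable reads was 1015 bases. Under 500 bases were 12 of the 46 members (26.1%) and 16.5% of the models of comparable reads. The shortest member, evm.TU.ctg165.23, had 14, 13 and 10 reads at 0 h and 0, 0 and 5 at 5 h. Because of its length this was 6.74 ± 1.94 FPKM at 0 h (SD, n = 3), the third highest level per length. The longest member, evm.TU.ctg731.5, had 14, 15 and 14 reads at 0 h and 1, 3 and 3 at 5 h, and at 0.177 ± 0.031 FPKM (SD, n = 3) it had the lowest level per length at 0 h. Both models were named after their values were seen.

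Non-evm models made up 45.7% of the members (21 of 46). Among the models of comparable reads they made up 29.98%, and among all models that met the limit at 0 h 19.2%. No test was made of these shares, since the members were chosen by level. Within the models of comparable reads, the non-evm models had a median log2 fold change of −0.04 and the evm models one of 0.14. The median length was 1006 bases in non-evm members and 801 bases in evm members.

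The position of the members along the genome was read from the identifiers only. The 25 evm members, joined model included, lay on 25 contigs, and 0 shared a contig with another. The contigs held 1 to 53 listed models, with a median of 11, which was also the median over all evm models. With so few members among 12851 evm and 287 joined models, the lack of a shared contig does not decide whether the members were grouped. The numbers of the 21 non-evm members ran from 204 to 3449, in a table whose highest number is 3453, and no 2 of them were closer than 48. Whether these numbers follow position is not known.

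Models next to an evm member by number on the same contig were not chosen by the rule. For 17 members at least 1 such neighbour was listed, 22 neighbours in all, of which 15 had enough reads to be tested. The median log2 fold change of these neighbours was −0.11, against 0.02 over all evm and joined models tested. Of the 15 neighbours, 1 was called down-regulated and 3 up-regulated (6.67% and 20%, against 8.21% and 14.7% of all evm and joined models tested). A model was called where edgeR's quasi-likelihood test of all 11959 models with enough reads gave an adjusted p not above 0.05 and the log2 fold change exceeded 1 in either direction.

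Some neighbours went against the member beside them. The neighbour of evm.TU.ctg731.5, evm.TU.ctg731.6, had 57, 50 and 61 reads at 0 h and 217, 174 and 220 reads at 5 h, and was called up-regulated with a log2 fold change of 1.85. The model evm.TU.ctg74.17, next to evm.TU.ctg74.16, had 49, 48 and 45 reads at 0 h and 104, 117 and 136 at 5 h, a log2 fold change of 1.32. Next to evm.TU.ctg1130.6, evm.TU.ctg1130.5 rose from 22.9 ± 3.07 CPM to 70.8 ± 5.00 CPM (SD, n = 3). In these 3 places, a model that rose stood beside 1 reduced to a few reads.

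In other places the neighbour was also lower at 5 h. The model evm.TU.ctg550.3, next to evm.TU.ctg550.4, was the neighbour called down-regulated, from 353.9 ± 14.4 CPM at 0 h to 114.8 ± 14.7 CPM at 5 h (SD, n = 3). The untested evm.TU.ctg616.13, next to evm.TU.ctg616.12, had 3, 10 and 7 reads at 0 h and 0, 0 and 2 reads at 5 h, the same direction at still fewer reads. The model evm.TU.ctg46.7 lies, by its number, between the parts of the joined model evm.TU.ctg46.6_evm.TU.ctg46.8. This joined model had 221, 205 and 266 reads at 0 h and 159, 117 and 129 at 5 h, a log2 fold change of −0.77 that was not called, whereas evm.TU.ctg46.7 had 18, 13 and 13 reads at 0 h and 3, 3 and 2 at 5 h. Reads shared between overlapping models, or taken from the other strand, were not separated here, and their part in these values was not tested. The neighbours named were chosen after their values were seen.

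In the test across all models, 38 of the 46 members had enough reads and 8 did not. All 38 tested members were called down-regulated, where 10.7% of all models tested were called in this direction. In all 46 members every ArR_5h library was below every ArD_0h library, as was the case in 33.4% of the models tested. The choice of the members fixes the order of the libraries and largely sets the number of calls, so nothing is read from either count. The median log2 fold change of the 38 was −2.35, with a range from −4.23 to −1.57, against −0.01 over all models tested. The largest value belonged to non-evm model 662 (−4.23 ± 0.55, SE) and the smallest to evm.TU.ctg2190.2 (−1.57 ± 0.39, SE). Which model came first depended on the method and the libraries. With limma-voom, non-evm model 2434 (−4.55) and evm.TU.ctg5511.1 (−4.21) exceeded model 662 (−4.12). Without ArR_5h replicate 3 the log2 fold changes were −7.59 for model 2434, −5.60 for evm.TU.ctg5511.1 and −3.67 for model 662, and without ArR_5h replicate 1 that of model 662 was −5.06. Model 2434 had 0 reads in the ArR_5h libraries that remain without replicate 3, so its fitted value there depends on the prior count.

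**Figure D3:**
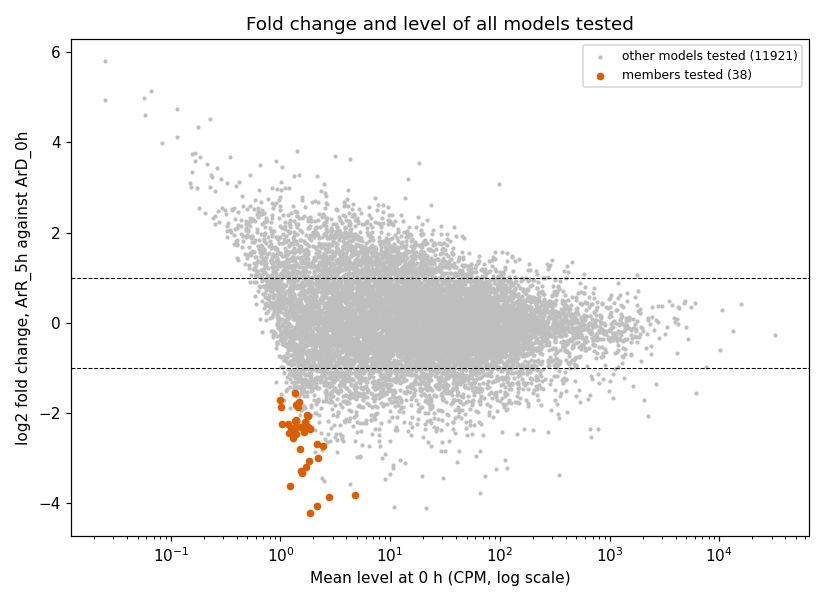
Log2 fold change at 5 h against 0 h (vertical axis) by mean level at 0 h in CPM (horizontal axis, log scale) for the 11959 models tested, with the 38 tested members as larger points and dashed lines at the fold limits of the call. The members lie between 0.9997 and 4.74 CPM, at the low end of level, since a model of higher level would need a larger decrease to reach 5 reads.

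Models of comparable reads at 0 h had a median near no change, with changes in both directions. Their median level at 5 h was 106.5% of that at 0 h, and 12.5% of those tested were called down-regulated and 22.2% up-regulated. A share of under 20% was left in 28 of these 2542 models (1.10%), and under 10% in 3 (0.118%). The smallest share left among them was 8.17%, and the members with less than this were non-evm models 662, 2434, 884 and 2901 and evm.TU.ctg5511.1. The members were taken out of this set, which removed every model with at most 5 reads in each ArR_5h library. How few models of the set kept a small share is therefore fixed in part by the choice. The spread between ArD_0h libraries, as a median coefficient of variation, was 21.2% in the members and 18.9% in the models of comparable reads. The members had fewer reads at 0 h (median 47.5 against 89), and counting noise makes this coefficient larger at fewer reads. The chi-square of the ArD_0h libraries per degree of freedom was 1.21 in the members and 1.46 in the models of comparable reads, where 1 is the sampling noise of reads alone. Since a low ArD_0h library would have removed a model, this value is set in part by the choice.

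The limits divided models that differed little. At the 0 h limit, non-evm model 1822, with 12, 10 and 11 reads at 0 h and 1, 2 and 3 at 5 h, evm.TU.ctg16.7, with 10, 10 and 14 reads at 0 h and 3, 5 and 2 at 5 h, and non-evm model 2044, with 10, 11 and 13 reads at 0 h and 4, 2 and 3 at 5 h, were just inside. Outside it were 9 models whose lowest ArD_0h library had 9 reads, among them evm.TU.ctg200.11 with 13, 9 and 30 reads at 0 h and 4, 5 and 4 at 5 h, evm.TU.ctg132.20 with 15, 9 and 27 reads and 3, 4 and 2, and evm.TU.ctg203.4 with 19, 9 and 17 reads and 5, 3 and 3. A single library with 9 reads kept these models out.

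At the 5 h limit, evm.TU.ctg2190.2 had 12, 18 and 15 reads at 0 h and 5 reads in each ArR_5h library, and was the member closest to exclusion. Beside it stood evm.TU.ctg106.18 and the joined model, both with 14 reads at 5 h in sum. Outside were 18 models whose highest ArR_5h library had 6 reads. Of these, evm.TU.ctg374.28 had 18, 34 and 28 reads at 0 h and 6, 1 and 0 at 5 h. Non-evm model 166 had 26, 22 and 37 reads at 0 h and 1, 6 and 0 at 5 h, and non-evm model 2932 had 15, 26 and 13 and then 6, 3 and 1. The first 2 of these were lower at 5 h by a larger factor than most members, and 1 read in a single library kept them out.

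Because both limits favour models that happened to be high at 0 h and low at 5 h, the difference was also read in libraries that did not take part in the choice. The limits were applied to 2 libraries of each group, and the summed level of the chosen models was read in the pair left out, for each of the 9 pairs. This chose 76 to 101 models, of which 46 (the members) met the limits in the left-out pair too. In the libraries that chose them, these models were 5.31-fold to 6.38-fold lower at 5 h. In the left-out pairs they were 2.80-fold to 3.54-fold lower (median 3.26-fold), with 28.2 to 35.7% of the 0 h level left. The level was lower at 5 h in 89.1 to 95.8% of the chosen models in each left-out pair. The same share over all models was not computed for these pairs. Over all models tested, with all libraries, the median log2 fold change was −0.01, which is another measure and no baseline for this share. The chosen models are not replicates, and nothing is read from their share. The direction of the summed level was the same in libraries not used for the choice, while the size of the difference was smaller in each of the 9 pairs. The pairs share libraries and each choice holds the same 46 members, so they are not independent of each other. The chosen models also include others than the members, so these values are not a test of the members.

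**Figure D4:**
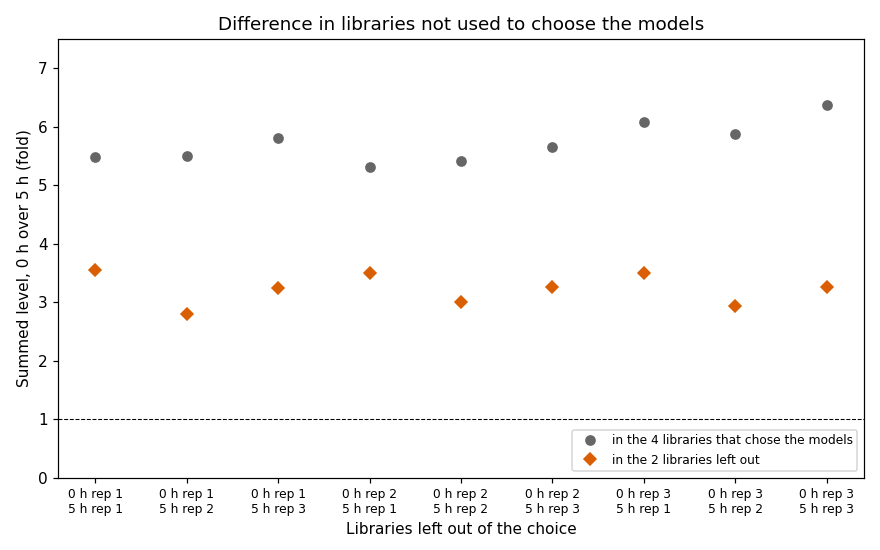
Summed level at 0 h over that at 5 h (fold, vertical axis) of the models chosen with 2 libraries per group, for each of the 9 pairs of libraries left out (horizontal axis, replicate numbers). Circles show the 4 libraries that chose the models, at 5.31 to 6.38, and diamonds the 2 left-out libraries, at 2.80 to 3.54, and the dashed line marks no difference.

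With 1 library left out, the limits chose 63, 66 and 50 models without ArD_0h replicate 1, 2 and 3, and 73, 69 and 67 models without ArR_5h replicate 1, 2 and 3. Of the 73 models chosen without ArR_5h replicate 1, 46 had at most 5 reads there and the highest had 16. Of the 67 chosen without ArR_5h replicate 3, the highest had 32 reads in that library. The median read count in the left-out ArR_5h library was 4 to 5, so that most models stayed near the limit. The 50 models chosen without ArD_0h replicate 3 were the fewest added, and this library was the deepest of all.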

How the data were processed

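RNA was sequenced from Artemia parthenogenetica cysts as 150 bp paired-end reads, with 3 libraries each for ArD_0h and ArR_5h. The libraries are described as biological replicates of a single batch of cysts, so p-values and SDs measure the spread between these libraries. The authors filtered the reads for quality and aligned them to the Artemia franciscana genome (ASM3288406v1), which is that of another species of the genus. The submitters' processing notes name HISAT2 2.0.5 and featureCounts 1.5.0-p3. For strand use in counting, no setting was given in the sources used here. The deposited table holds raw read counts and FPKM values per gene model, the latter computed by the authors from count and model length. All columns with values were assigned to a library, and 0 were left over. Model lengths were recovered by dividing counts by FPKM values, and were within 0.01 bases of a whole number for 100% of the 14844 models with reads.

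A quasi-likelihood F test compared the deposited counts of ArR_5h and ArD_0h (edgeR 4.0.16, R 4.3.3), with TMM factors, filterByExpr (minimum count 10, minimum total 15) and Benjamini-Hochberg adjustment. The fit was tested on simulated data. Standard errors of log2 fold changes were derived from F. Alternatives were RLE factors, library totals, other filters, DESeq2 1.42.0, limma-voom (limma 3.58.1), a replicate block, other read limits and leaving out libraries. Leaving out 1 library of each group and calling without the members were chosen after seeing the data.

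The members and lists were chosen with earlier results of these data known. Members named with their reads were the 10 evm and 10 non-evm models of highest mean CPM at 0 h and those nearest the limits (3 inside and 3 outside each). Lists defined by gene names were not analysed here, since no annotation was used, and sequences were not used here. Intervals are 95% exact Poisson or Clopper-Pearson intervals. Figures were drawn with matplotlib 3.10.9.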

Additional observations from a re-analysis of the deposited data

How the results depend on the processing

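The number of members followed the limits closely. It was 29 with reads scaled to the mean TMM-adjusted total (27 of them members), 4 with at least 20 reads at 0 h, 5 with at most 2 reads at 5 h and 176 with at most 10 reads at 5 h. It ran from 50 to 101 when libraries were left out of the choice. Non-evm models were 80% of the 5 models with at most 2 reads at 5 h, and 38.4 to 49.2% when 1 library was left out. The median log2 fold change of the tested members was −1.86 with a prior count of 2, by its construction nearer to 0, and −2.62 to −2.40 when a library was left out. The models called were 2984 in all, and 2980 to 3194 when a library was left out. Among the 20 named members tested, 254 alternative results kept the call and 1 lost it, evm.TU.ctg16.7 with DESeq2 at a log2 fold change of −1.74. Of all members, 38 were called by limma-voom, 46 with no filter and 44 of 46 by DESeq2. Single models have 0 to 5 reads at 5 h, so depth limits every share left.

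A fit with a block for the replicate number called 3006 models, 38 members among them, at a median log2 fold change of −2.35. The deviations from the group means correlated between equal numbers at 0.019, 0.033 and 0.095, which do not show that the numbers pair the libraries, and ArD_0h replicate 1 and replicate 2 correlated best with number 2 and replicate 3 with number 3.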

Other observations

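The reverse limits, at least 10 reads in each ArR_5h library and at most 5 in each ArD_0h library, were met by 55 models, close in number to the 46 described above. Of these 55, 30 were non-evm models (54.5%) and 25 carried an evm identifier, and their median length was 809 bases. Their median level was 0.232 CPM at 0 h and 1.69 CPM at 5 h. Non-evm models made up 20.8% of all models in the count table and 29.98% of the models of comparable reads at 0 h. Their share among models of comparable reads at 5 h was not computed. Both sets of limits thus picked weak models with a share of non-evm models above that over all models, and no test was made of that share.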
